A study of Mus musculus with 8 samples.

Results

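The 4 genes for ID proteins and 5 genes of the BMP pathway were followed through PyMT mammary tumor organoids with and without SOX4, a transcription factor with an HMG box. They were chosen by name and are 9 of the 38293 gene identifiers in the deposited counts: Id1, Id2, Id3 and Id4, the ligands Bmp4 and Bmp7, the receptors Bmpr1a and Bmpr2, and the inhibitory SMAD gene Smad6. In bulk, 8 of the 9 had at least 1 read, 7 had enough reads to be tested, and 1, Bmp7, passed the test (edgeR's quasi-likelihood test, adjusted p under 0.1), at a mean 3.09-fold higher in SOX4KO lines, where 6.27% of all genes passed, 4.1% as higher. That call was lost when any 1 of WT1, WT3, H7 or M4 was left out. In single cells Bmp7 was lower in both SOX4KO libraries than in the control library. In the cell clusters with the highest luminal markers, C and E, Id4 was low in all 3 libraries. It was at 4.11, 5.03 and 1.98 normalized counts per 1000000 (CPM) in GR17, GR18 and GR19. In the same clusters Bmp7 was at 1.93 and 3.10 CPM in the SOX4KO libraries GR18 and GR19 and at 26.3 CPM in the control library GR17. The GR17 value of Bmp7 rests on 32 molecules in 50 cells of the 1 control plate. Genotype, clone and plate cannot be told apart there.

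BMP ligands bind a pair of type I and type II receptors, of which BMPR1A and BMPR2 are examples, and the receptors phosphorylate SMAD1, SMAD5 and SMAD9, which enter the nucleus with SMAD4. The Id genes are textbook targets of these SMADs, and SMAD6 blocks the pathway as feedback. ID proteins have a helix-loop-helix but no DNA-binding region, so that they pair with E proteins such as TCF3, TCF4 and TCF12 and keep them off DNA, and in the mammary gland ID2 and ID4 are known for roles in luminal and basal cells, respectively.

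The organoids came from tumors of MMTV-PyMT; MMTV-Cre; Ecadherin-mCFP mice, in which the MMTV promoter drives both the PyMT oncogene and Cre in mammary epithelium, so that control and SOX4KO lines share these alleles. SOX4KO lines carried CRISPR/Cas9 edits of Sox4, and each line is a clone, so a replicate is a line and clone-to-clone differences within a genotype enter the error. All were cultured for 4 days from single cells in medium with B27 and FGF2, and the labels name no added BMP ligand. Bulk RNA was sequenced from 2 control lines (WT1 and WT3) and 3 SOX4KO lines (H7, M4 and H4), with 3050323 to 4678497 reads on genes, and single cells from 1 control plate (GR17) and 2 SOX4KO plates (GR18 and GR19), with 369, 369 and 362 cells and a median of 19840 to 21880 UMIs (unique molecules). The labels do not say which bulk line each plate came from.

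Sox4 itself was at 295 and 374 CPM in WT1 and WT3 and at 199, 179 and 299 CPM in H7, M4 and H4, a log2 fold change of -0.57 ± 0.25 (SE) that did not pass the test (adjusted p = 0.277, edgeR). The SOX4KO line H4 lay between the control lines, and because an edit that shifts the reading frame need not remove the RNA, these counts do not check the knockout. Epithelial markers were present in every line (Krt8 at 321 to 471 CPM and Krt14 at 108 to 602 CPM), while Cdh5, Kdr, Tie1, Emcn and Cldn5 of endothelial cells were at 0 reads in all 5, and summed CPM was 1.29 to 3.96 for 8 endothelial genes and 1.79 to 14.4 for 8 immune genes. For 8 fibroblast genes summed CPM was higher, at 57.95 to 103.6. Most of this was Pdgfra, at 41.4 to 99.8 CPM, while Thy1 and Fap were at 0 reads in all 5 lines. Of the contractile markers of normal basal cells, Myh11 was at 0 reads and Acta2 at 0 to 5 reads, while Mylk was at 101 to 193 CPM.

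The 4 Id genes are close relatives, and their sequences are shown because counts can be split between relatives that share long stretches. The stretch that codes for the helix-loop-helix lies in 1 exon of each gene. Below are 120 coding bases of each, 5′ to 3′ on the coding strand, taken from the GRCm38 genome at chr2:152736520-152736639 (+) for Id1, chr12:25095781-25095900 (-) for Id2, chr4:136144004-136144123 (+) for Id3 and chr13:48261695-48261814 (+) for Id4. Capitals mark the 70 bases that are identical in all 4.
Id1: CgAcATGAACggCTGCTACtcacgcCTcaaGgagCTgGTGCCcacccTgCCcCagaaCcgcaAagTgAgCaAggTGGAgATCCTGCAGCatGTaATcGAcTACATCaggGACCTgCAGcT
Id2: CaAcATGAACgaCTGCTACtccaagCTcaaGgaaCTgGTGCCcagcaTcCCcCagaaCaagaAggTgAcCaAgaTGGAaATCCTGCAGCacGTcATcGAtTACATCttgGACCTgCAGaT
Id3: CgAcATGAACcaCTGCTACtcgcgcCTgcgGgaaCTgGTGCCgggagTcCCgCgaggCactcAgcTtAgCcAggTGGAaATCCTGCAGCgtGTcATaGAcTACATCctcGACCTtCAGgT
Id4: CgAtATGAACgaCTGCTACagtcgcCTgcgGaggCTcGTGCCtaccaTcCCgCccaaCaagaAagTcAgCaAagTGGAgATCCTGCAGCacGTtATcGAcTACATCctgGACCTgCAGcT
Pairs of Id genes were identical at 70.8% to 80.8% of these bases, with Id1 and Id2 the closest pair and Id1 and Id3 the farthest. Over the whole aligned coding sequence the identity was 57.9% to 62.8%, and the longest run shared by any pair was 17 bases, between Id1 and Id4.

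Bases upstream of the start site were found for 7 of the 9 genes in the RefSeq table for GRCm38.p6, and Id1 and Bmp7 had no entry. The window of Id4, the Id gene with the widest range between cells, was the 250 bases before the start, chr13:48260866-48261115 (+), shown 5′ to 3′ with the GC-rich SMAD motif GGCGCC in capitals.
Id4: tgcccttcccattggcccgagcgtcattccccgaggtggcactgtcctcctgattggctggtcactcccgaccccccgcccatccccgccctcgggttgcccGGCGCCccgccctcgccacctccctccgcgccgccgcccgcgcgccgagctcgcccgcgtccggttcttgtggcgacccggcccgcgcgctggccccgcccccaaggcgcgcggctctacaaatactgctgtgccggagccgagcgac
GC content was 75.6% in this window, against a median of 52% (quartiles 44.8% and 60.8%) over 27025 mouse promoters of the same length. GGCGCC, which reads the same on both strands, occurred in the windows of Id2, Id4, Bmpr1a and Bmpr2 and in 9.54% of all 27025. The short SMAD motif CAGAC, searched on both strands, occurred in the window of Id3, at 2 places, and in 42.1% of all. The SOX motifs ACAAAG and ACAATG, also on both strands, were found in none of the 7 windows and in 16.5% and 11% of all. The 7 windows had a GC content of 62.8% to 78.8%, each above the upper quartile of all promoters, and the 27025 were not matched for GC content. The part of base composition in these matches was not tested. A match to letters is not a binding site, and no match says only that these letters are not in the window.

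Per length of transcript, Id2 was by far the most abundant of the 9 genes in bulk. In control lines it averaged 213 ± 25.8 RPKM (reads per kilobase of exon, scaled for depth; SD, n = 2), ahead of Bmpr1a at 23.7 ± 0.837, Id4 at 9.27 ± 1.63, Id1 at 6.17 ± 1.47, Bmp7 at 6.14 ± 3.71, Smad6 at 4.80 ± 0.506, Bmpr2 at 3.33 ± 0.517 and Id3 at 1.44 ± 1.42 RPKM. From Id4 down to Bmpr2 several neighbours overlapped: Id1, Bmp7 and Smad6 did not differ beyond their SD. In SOX4KO lines Bmp7 averaged 18.8 ± 7.55 RPKM (n = 3) and stood after Id2 at 147 ± 9.81 and Bmpr1a at 23.1 ± 2.58, but its SD reached the mean of Id4 at 15.02 ± 7.88 RPKM.

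**Figure D1:**
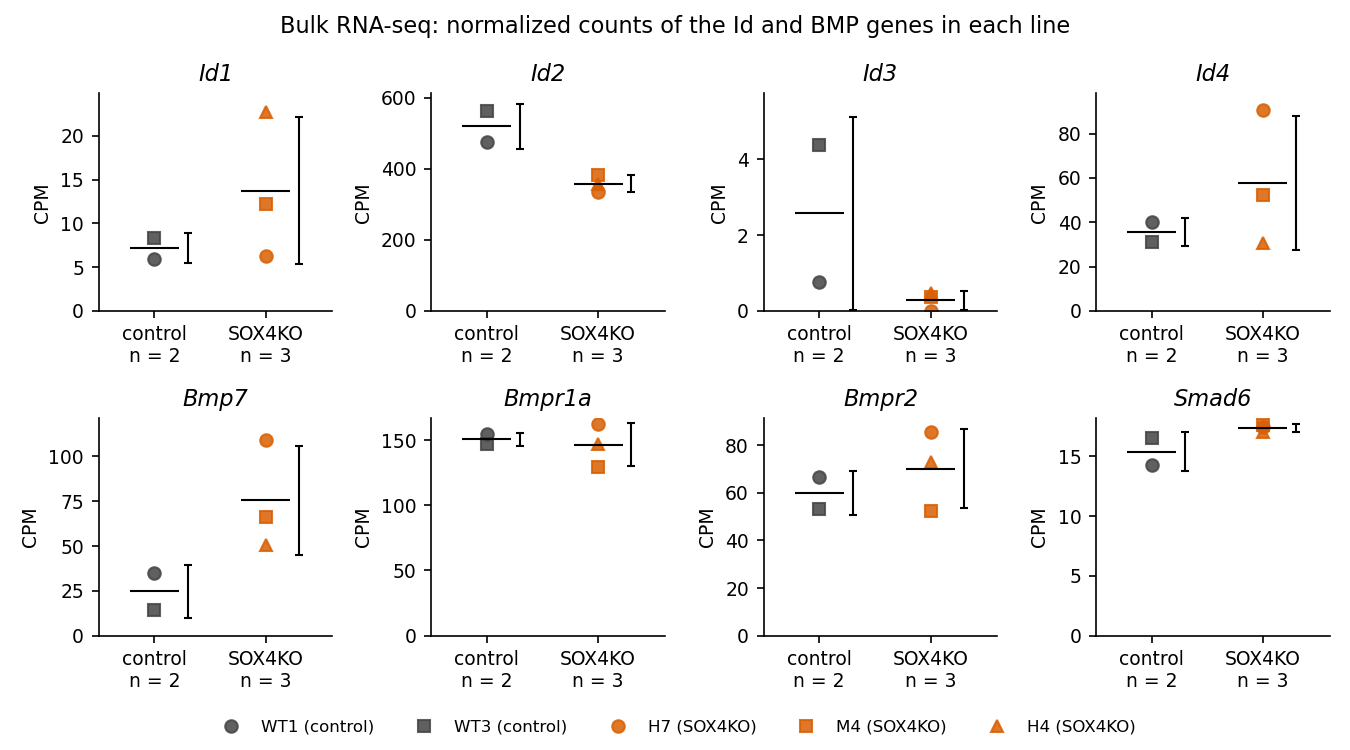
Normalized counts (CPM, linear axes that start at 0) of the 8 genes with reads, with 1 point for each line, a horizontal line at the group mean and a bar of 1 SD beside it. Bmp7 and Smad6 are higher and Id2 and Id3 lower in all 3 SOX4KO lines than in both control lines, and the points of Id1, Id4, Bmpr1a and Bmpr2 overlap.

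Id1, an ID gene that responds quickly to BMP, was low and variable in bulk. It was at 5.95 and 8.36 CPM in WT1 and WT3 and at 6.26, 12.2 and 22.8 CPM in H7, M4 and H4. H4 was the highest and H7 lay between the controls, so the groups overlapped, and the log2 fold change of 0.94 ± 0.51 did not pass (adjusted p = 0.395, edgeR). In single cells the summed level was 29.95 CPM in GR17 (95% Poisson interval 26.2 to 34.1), 22.7 CPM in GR18 (19.5 to 26.3) and 30.1 CPM in GR19 (26.5 to 34.1). Only GR18 stood apart, at 0.759 times the control level (0.621 to 0.926).

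Id2 was at 475 and 564 CPM in WT1 and WT3 and at 335, 382 and 357 CPM in H7, M4 and H4. All 3 SOX4KO lines were below both control lines, with little spread among themselves (SD 23.9 CPM, n = 3). The log2 fold change was -0.54 ± 0.18 (adjusted p = 0.158, edgeR's quasi-likelihood test across 11682 genes), so Id2 did not pass at 0.1. DESeq2 gave the same fold change with an adjusted p = 0.0449, and over the 8 alternatives run the adjusted p was 0.0449 to 0.83. In single cells the order was the other way, at 122 CPM in GR17 (115 to 130), 167 CPM in GR18 (158 to 176) and 137 CPM in GR19 (129 to 145). GR18 was 1.37 times the control library (1.26 to 1.49) and GR19 1.12 times (1.02 to 1.22).

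Id3 was close to absent in bulk. It had 3 reads in WT1, 22 in WT3, none in H7, 1 in M4 and 2 in H4, and was removed by the filter on low counts. Summed over lines, 3 reads in SOX4KO and 25 in control give a ratio of 0.0887 per read on genes (exact interval 0.0171 to 0.291). That interval covers counting error only, and 22 of the 25 control reads came from WT3. Without the filter its adjusted p was 0.0133 in edgeR, and without WT1, when it passed the filter, 0.205. In single cells it was at 17.9 CPM in GR17 (15.03 to 21.1), 5.74 CPM in GR18 (4.21 to 7.66) and 10.9 CPM in GR19 (8.72 to 13.3), thus lower in both SOX4KO libraries, at 0.321 (0.225 to 0.451) and 0.606 (0.46 to 0.797) times the control level.

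Id4 was at 40.1 and 31.3 CPM in WT1 and WT3 and at 90.5, 52.2 and 30.7 CPM in H7, M4 and H4. H7 was highest and H4 was below both controls, so the groups overlapped, with a log2 fold change of 0.70 ± 0.40 that did not pass (adjusted p = 0.42, edgeR). Without H7 the fold change was 0.20. In single cells the levels were far apart, at 115 CPM in GR17 (108 to 123), 76.8 CPM in GR18 (70.8 to 83.1) and 28.9 CPM in GR19 (25.4 to 32.8). These are 0.668 (0.602 to 0.741) and 0.252 (0.217 to 0.29) times the control library, and the GR18 and GR19 levels themselves did not overlap.

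Of the ligands, Bmp4 had no read in any of the 5 lines and no UMI in any of the 369, 369 and 362 cells. With a floor of 3 counts, a count of 0 allows up to 0.389, 0.375 and 0.362 CPM in GR17, GR18 and GR19, and a share of cells with a UMI of up to 0.813%, 0.813% and 0.829%. The upper ends of the exact two-sided 95% intervals were 0.478, 0.461 and 0.445 CPM, and 0.995%, 0.995% and 1.01% of cells. Bmp7, a BMP of epithelia, was at 35.2 and 14.1 CPM in WT1 and WT3 and at 109, 66.2 and 50.8 CPM in H7, M4 and H4. Every SOX4KO line was above both controls, and the range in each group was over 2-fold. Bmp7 rose by a log2 fold change of 1.63 ± 0.44 (adjusted p = 0.0928, edgeR). It was the 1 of 7 tested members to pass, where 6.27% of all 11682 genes tested passed, 4.1% as higher and 2.17% as lower. The call was close to the threshold: it was lost without WT1 (adjusted p = 0.101), WT3 (0.575), H7 (0.158) or M4 (0.113) and kept without H4 (0.0496), while the direction was the same in all 8 alternatives (log2 1.099 to 2.41). The unadjusted edgeR p was under 0.05 for 2 of the 7, Bmp7 and Id2, where it was for 18.1% of all genes, and also for 2 in DESeq2, where it was for 15.8%.

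In the single-cell libraries Bmp7 was at 63 CPM in GR17 (57.5 to 68.9), 36.3 CPM in GR18 (32.3 to 40.8) and 25.7 CPM in GR19 (22.3 to 29.4). Both SOX4KO libraries were below the control library, at 0.577 (0.497 to 0.668) and 0.407 (0.345 to 0.48) times its level. With 1 control library, genotype, clone and plate cannot be told apart, and no test was made.

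Counting which lines did not overlap, 3 of the 7 tested members (Id2, Bmp7 and Smad6) had all SOX4KO lines on 1 side of both controls, where 36.9% of all genes tested did. The 2 above the controls compare with a background of 19% and the 1 below with 17.9%. Markers of cycling cells moved with the groups: of 14 genes all 14 were lower and 10 passed, where 2.17% of all genes passed as lower. Basal markers did so only in part. Of 10 tested 8 were higher, and 3 passed as rising (Oxtr, Sparc and Jag2) and 1 as falling (Lgr5), where 6.27% of all genes passed. Of 13 tested luminal markers 9 were lower and 4 higher, and 1 passed as rising (Esr1) and 1 as falling (Cited1), where 6.27% of all genes passed. The luminal sums of H7 and M4 were below both controls and that of H4 was above them. Csn3 alone was at 2287 CPM in H4, 741 CPM in H7 and 165 CPM in M4, against 336.5 and 271 CPM in WT1 and WT3. Summed CPM was 835 to 866 in control and 376 to 556 in SOX4KO lines for cycling, 16810 to 18720 and 20470 to 24190 for basal, and 2306 to 2475 and 1835 to 4159 for luminal markers. Most of the basal sum was Igfbp5, at 15450 to 19110 CPM, whose groups overlapped, as did those of Krt14 and Krt5. The part of all these markers in the Id and BMP values was not tested, and in bulk RNA fewer cells of a type and less RNA per cell cannot be told apart.

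Both receptor genes were at even levels in bulk. Bmpr1a, a type I receptor, was at 154 and 147 CPM in WT1 and WT3 and at 162, 130 and 147 CPM in H7, M4 and H4, with overlapping groups and a log2 fold change of -0.04 ± 0.17 (adjusted p = 0.938, edgeR). Bmpr2, the type II receptor, was at 66.5 and 53.4 CPM in WT1 and WT3 and at 85.3, 52.2 and 73.1 CPM in H7, M4 and H4, again overlapping, with a log2 fold change of 0.23 ± 0.24 (adjusted p = 0.676).

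In single cells Bmpr1a was at 48.2 CPM in GR17 (43.5 to 53.4), 57.9 CPM in GR18 (52.8 to 63.5) and 52.6 CPM in GR19 (47.7 to 57.7). Bmpr2 was at 71.95 CPM (66.1 to 78.2), 90.6 CPM (84.2 to 97.5) and 109 CPM (102 to 116) in the same order. Bmpr2 was thus higher in both SOX4KO libraries, at 1.26 (1.13 to 1.41) and 1.51 (1.36 to 1.68) times the control level, and Bmpr1a at 1.2 (1.05 to 1.38) and 1.09 (0.947 to 1.25) times.

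Smad6 was at 14.2 and 16.5 CPM in WT1 and WT3 and at 17.5, 17.6 and 17 CPM in H7, M4 and H4. The SOX4KO lines were all above both controls, but the gap was small, with a log2 fold change of 0.17 ± 0.23 (adjusted p = 0.765, edgeR). The single-cell levels of 20.6, 21.1 and 17.2 CPM in GR17, GR18 and GR19 had overlapping intervals.

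**Figure D2:**
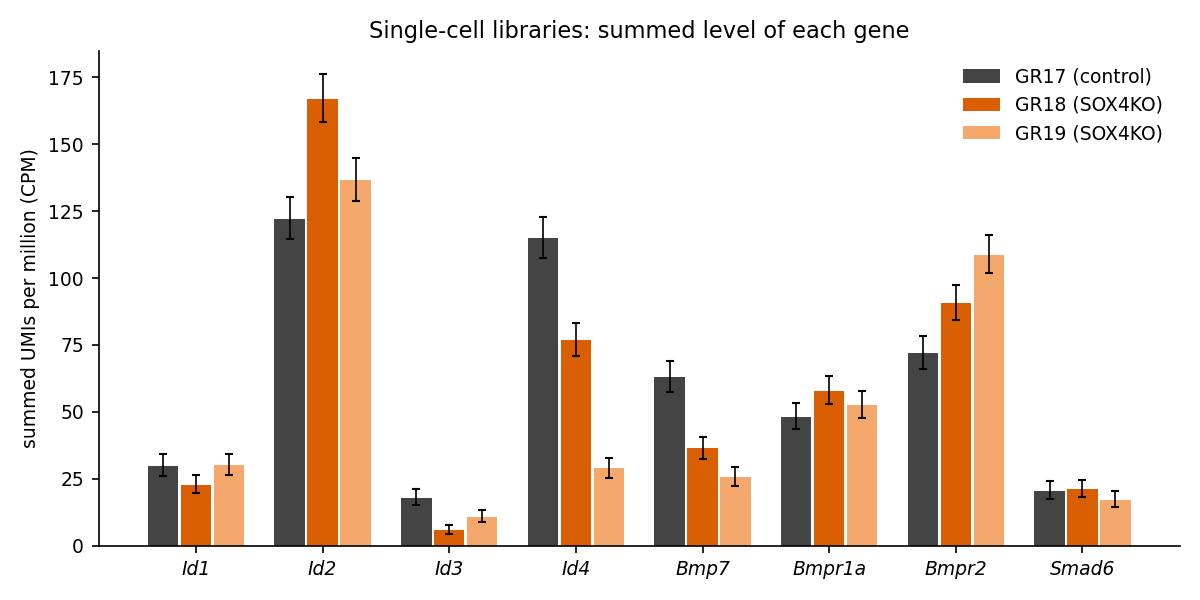
Summed level (CPM of UMIs, axis from 0) of the 8 genes in each single-cell library, with exact 95% Poisson intervals as bars. Id4, Bmp7 and Id3 are lower and Id2 and Bmpr2 higher in both SOX4KO libraries (GR18 and GR19) than in the control library GR17.

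By the measure used across all genes, a change of at least 2-fold the same way in both SOX4KO libraries, 0 of the 6 members with a mean of 20 CPM passed, where 2.24% of 6303 genes did, 1.92% as higher and 0.317% as lower. Id4 and Bmp7 were past 2-fold in GR19 but not in GR18 (log2 -0.58 and -1.95 for Id4, -0.78 and -1.26 for Bmp7). Of these 6, 3 were higher in both SOX4KO libraries and 2 lower in both. No share over all genes was taken for this count, so it is not a result about the members. Bmpr1a, 1 of the 3, was within counting error of the control in GR19 (1.09 times, 0.947 to 1.25).

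**Figure D3:**
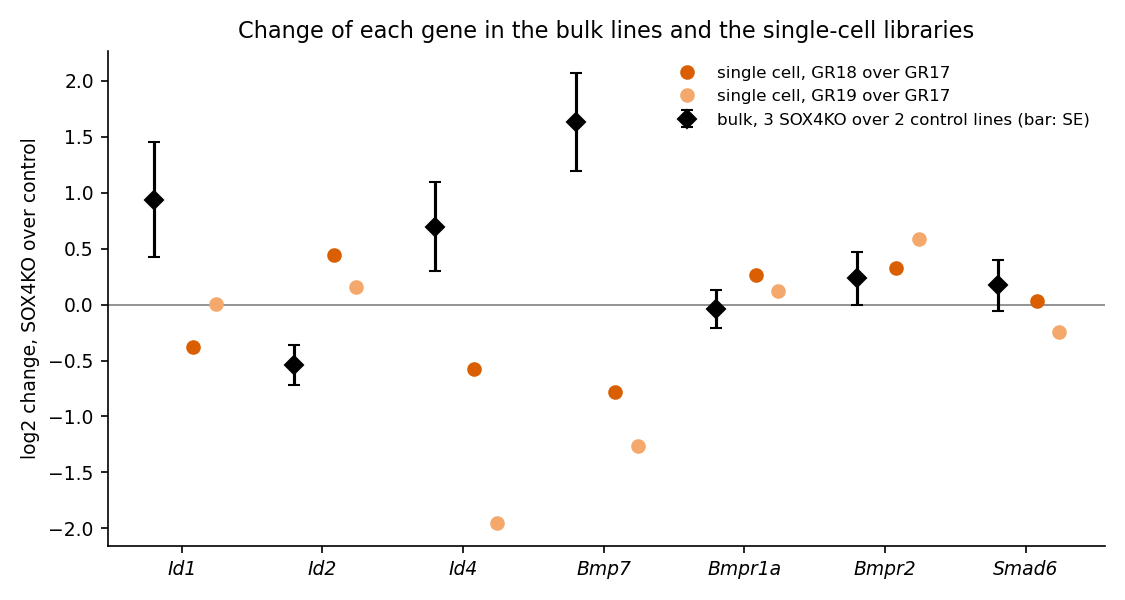
Log2 change of SOX4KO over control for the 7 genes tested in bulk, with the bulk value (diamond, bar of 1 SE) beside the 2 single-cell libraries (circles). Bmp7 is at 1.63 in bulk and at -0.78 and -1.26 in single cells, Id2 at -0.54 and at 0.45 and 0.16, and both lie on opposite sides in the assays. Id4 (0.70, and -0.58 and -1.95) and Bmpr1a (-0.04, and 0.26 and 0.12) do too, with bulk lines that overlap.

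Cell by cell, the share of cells with a UMI was read after each cell had been thinned to 5000 UMIs, which kept 361, 365 and 358 cells. Id4 was seen in 34.4% of GR17 cells (exact binomial interval 29.5% to 39.5%), 24.9% of GR18 cells (20.6% to 29.7%) and 13.4% of GR19 cells (10.1% to 17.4%). Bmp7 was seen in 29.6% (24.97% to 34.6%), 15.9% (12.3% to 20.1%) and 10.9% (7.86% to 14.6%). Without thinning the shares were 57.2%, 50.4% and 26.8% for Id4 and 60.2%, 35.2% and 31.2% for Bmp7, in the same order.

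Id2 was in 42.1%, 46.03% and 43.3% of thinned cells, shares whose intervals overlapped. Bmpr2 was in 30.5%, 32.9% and 39.4%, Bmpr1a in 23.6%, 23.6% and 21.5%, Smad6 in 8.59%, 10.1% and 8.10%, Id1 in 13.02%, 5.75% and 13.7%, and Id3 in 7.20%, 3.01% and 2.79%.

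Id4 was seen in a larger share of the cells with a UMI of the basal keratin Krt14. Among thinned cells with Krt14, 37.1% of GR17, 26.8% of GR18 and 16.2% of GR19 cells had Id4, against 6.25%, 0.0% and 0.0% of cells without Krt14 (32, 26 and 62 cells). With a floor of 3 cells, those few cells allow a share of up to 11.5% in GR18 and 4.84% in GR19, and the exact two-sided 95% intervals reach 13.2% and 5.78%. For Bmp7 the shares were 31.3%, 16.8% and 12.2% with Krt14 and 12.5%, 3.85% and 4.84% without it. Split by Trp63, another basal marker, they were 19.6% with it and 14.2% without it in GR18, and 15.6% and 9.61% in GR19. In GR17 the order was the other way, since the Bmp7 share with Trp63, 28.2%, was slightly below the share without it. Id4 was in 42.1%, 37.9% and 28.2% of cells with a Bmp7 UMI and in 31.1%, 22.5% and 11.6% of cells without one, the higher share being that of cells with Bmp7 in each of the 3 libraries.

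The genes that varied most like Id4 over cells were Sparc, a matrix glycoprotein (mean within-library Spearman rho 0.35), the basal keratin Krt5 (0.32) and Cmah, an enzyme of sialic acid synthesis (0.30). Krt18, a luminal keratin, was on the other side at -0.20. These correlations are over 361, 365 and 358 thinned cells of 1 library each, so they are descriptions. Thinning had brought these cells to the same number of UMIs. For Id2 the highest were Wwp2 (0.22), Fos (0.22) and Itm2b (0.22), and Id2 itself was near 0 with Id4 (-0.04). For Bmpr1a (Car12 0.14, Ptms 0.13, Pmepa1 0.13) and Bmpr2 (Malat1 0.14, Nfix 0.13, 2900097C17Rik 0.12) no gene among 3573 was above 0.14, which in sparse counts is no finding.

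Cells were clustered into 7 groups, A to G, with the 9 members left out of the genes used. Clusters C (156 cells) and E (132 cells) had the highest luminal and the lowest basal markers, with Csn3 among the leading genes of each, and can be called luminal-like. In A, B, D and G the basal markers were above the mean of the clusters and the luminal markers below it. Clusters B and F came almost all from GR17 (206 of 210 and 104 of 119 cells) and A, D and G from GR18 and GR19, so those clusters cannot be told apart from their library. F, with luminal Foxa1 and basal Krt17 both among its leading genes, was left unnamed, and held 104, 8 and 7 cells of GR17, GR18 and GR19. Its luminal markers were above the mean of the clusters (median log2 0.812, against 1.566 in C and 2.029 in E). Its basal markers were below that mean (-0.272, against -1.502 in C and -2.203 in E).

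Id4 and Bmp7 were low in the luminal-like clusters C and E, but not in F, whose luminal markers were also above the mean. Over all libraries Id4 was at 3.71 CPM in C and 2.89 CPM in E, against 48.9 CPM in F, 70.5 CPM in G, 85.3 CPM in A, 90.1 CPM in D and 164 CPM in B. Bmp7 was at 9.39 CPM in C and 1.81 CPM in E, and at 46.8 to 71.2 CPM in the other 5. In cluster C, Bmp7 was at 29.8 CPM in GR17 (19.96 to 42.8), 2.92 CPM in GR18 (0.795 to 7.47) and 4.48 CPM in GR19 (2.15 to 8.23). The cells of C also differed by library in Csn3 (412, 844 and 3026 CPM in GR17, GR18 and GR19) and in Krt5 (147, 109 and 29.5 CPM), and the part of this in the Bmp7 values was not tested. In E, Bmp7 had 1 UMI in each of GR18 and GR19.

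Id2 followed another split. It was highest in A (239 CPM), E (202 CPM) and F (198 CPM), the clusters with the lowest cycling markers. Next came G (159 CPM), the cluster with the highest cycling markers, then C (114 CPM), B (80.4 CPM) and D (79.1 CPM). Id2 thus did not follow the cycling markers throughout, and its mean within-library rho with Mki67 over cells was -0.006. Within GR17 Id2 was at 211 CPM in F and 80.4 CPM in B, and within GR18 at 259 CPM in A and 78.9 CPM in D. In GR19 the matching values were 210 CPM in A and 79.4 CPM in D, so the order held in each library. In the clusters with low cycling markers together, Id2 was at 212 CPM (193 to 233), 250 CPM (233 to 267) and 187 CPM (172 to 203) in GR17, GR18 and GR19. The intervals of GR17 and GR19 overlapped there. The mix of clusters also differed, since 104 of these 127 GR17 cells were in F, which held 8 and 7 cells of GR18 and GR19. Outside the clusters with low cycling markers Id2 was at 90.2, 110 and 107 CPM. These clusters held 34.4%, 50.1% and 43.9% of the cells of GR17, GR18 and GR19, and their part in the library levels was not tested.

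**Figure D4:**
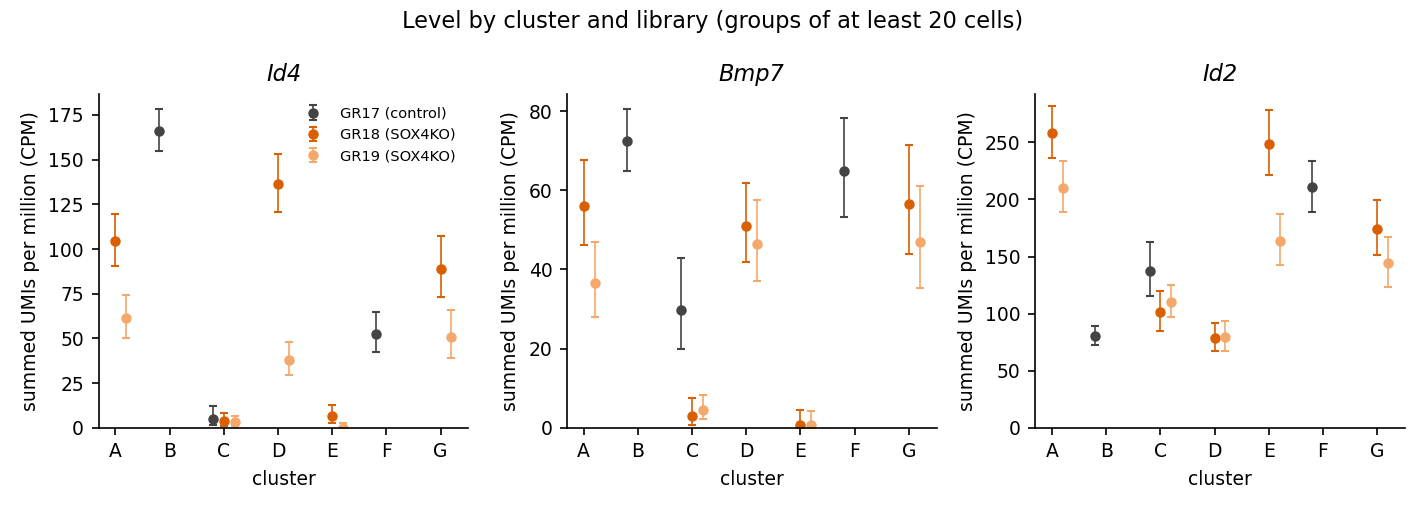
Level (CPM of summed UMIs, axis from 0) of Id4, Bmp7 and Id2 in clusters A to G, by library, with exact 95% Poisson intervals and only groups of at least 20 cells. Id4 and Bmp7 are near 0 in clusters C and E, except Bmp7 in C of GR17 (29.8 CPM), and Id2 is highest in A, E and F.

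The luminal-like clusters held 50 cells of GR17, 107 of GR18 and 131 of GR19, and since luminal genes differ between libraries (Csn3 at 101, 391 and 1754 CPM) these counts are not a result about genotype. In cells outside C and E, Bmp7 was at 69.9 CPM in GR17 (63.6 to 76.6), 52.7 CPM in GR18 (46.8 to 59.2) and 42.5 CPM in GR19 (36.9 to 48.8), still lower in both SOX4KO libraries, with log2 changes of -0.40 and -0.70 in place of -0.78 and -1.26. Id4 there was at 136, 111 and 49.03 CPM, or -0.29 and -1.45. Id2 was at 118, 165 and 141 CPM, or 0.48 and 0.26. This alternative was added after the cluster levels were seen.

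The other genes of the pathway gave a mixed picture. Of 59 further BMP and ID pathway genes, 16 had no read in any line and 33 had enough reads to be tested, of which 16 were higher and 17 lower in SOX4KO lines (median log2 fold change -0.003, against 0.00867 over all genes). The test passed 2 as higher and 3 as lower (6.27% of all genes passed), and the unadjusted p was under 0.05 for 9 by edgeR (18.1% of all genes) and for 11 by DESeq2 (15.8% of all genes). All SOX4KO lines were on 1 side of both controls for 14 of the 33, where 36.9% of all genes were. The count of 5 was 0 without WT1 or WT3, 1 without H7, 6 without M4 and 4 without H4.

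Among ligands, Bmp2 fell. It had 14 and 12 reads in WT1 and WT3 and 0, 0 and 2 in H7, M4 and H4 (adjusted p = 0.0682, edgeR). This is a ratio of 0.0569 per read on genes (exact interval 0.00654 to 0.227). In single cells it had 8 UMIs in GR17 and none in GR18 or GR19. Bmp2 was at a very low level in every line, at 3.62 CPM or less. Of the other ligands, 7 were at 0 reads in all 5 lines and Gdf5 was tested without passing.

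Among extracellular inhibitors and modulators, 2 of 9 tested rose, where 4.1% of all genes passed as higher. Fstl3, a follistatin-like protein that binds activins and some BMPs, was at 5.70 and 7.17 CPM in WT1 and WT3 and at 15.7, 22.3 and 12.5 CPM in H7, M4 and H4 (log2 1.36 ± 0.34, adjusted p = 0.0767, edgeR), and had no UMI in single cells. Crim1, a membrane protein that binds BMPs, was at 58.5 and 43.4 CPM and at 98.9, 71.99 and 92.7 CPM (log2 0.79 ± 0.22, adjusted p = 0.099). In single cells Crim1 was at 20.2, 22.4 and 26.3 CPM in GR17, GR18 and GR19. The SOX4KO lines were above both controls for each of these genes.

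Hey1, a repressor that BMP and Notch both induce, was at 192 and 220 CPM in WT1 and WT3 and at 129, 104 and 146 CPM in H7, M4 and H4, and fell (log2 -0.70 ± 0.19, adjusted p = 0.0973, edgeR). It was at 162, 155 and 127 CPM in the single-cell libraries, lower than control beyond counting error in GR19 only. Tcf3, an E protein that ID proteins bind, was at 82.1 and 90.2 CPM in WT1 and WT3 and at 46.97, 58.7 and 57.5 CPM in H7, M4 and H4, and fell too (log2 -0.67 ± 0.18, adjusted p = 0.0892). It was at 48.2, 24.4 and 19.9 CPM in the single-cell libraries, 0.505 and 0.412 times the control level, so it was lower in both assays. All 3 E protein genes tested had values below 0 in bulk, and Tcf3 was the one that passed. In single cells Tcf4 was at 70.5, 46.8 and 45.4 CPM in GR17, GR18 and GR19, 0.664 and 0.644 times the control level, and Tcf12 was at 50.04, 52.4 and 53.8 CPM, 1.05 and 1.07 times, with intervals that included 1.

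Of the 19 pathway genes with a mean of 20 CPM in single cells, 1 was past 2-fold in both SOX4KO libraries, where 2.24% of 6303 genes were and 0.317% as lower. That gene was Fst, follistatin, named here after its values were seen, at 136, 54.7 and 65.7 CPM (log2 -1.30 and -1.04). In bulk it was at 38.3 and 21.5 CPM in controls and at 26.6, 36 and 23.95 CPM in SOX4KO lines (log2 -0.05 ± 0.29, adjusted p = 0.949, edgeR). Smad1, Smad5 and Smad4, which carry the signal, were tested in bulk and none passed (adjusted p = 0.857, 0.532 and 0.933).

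**Figure D5:**
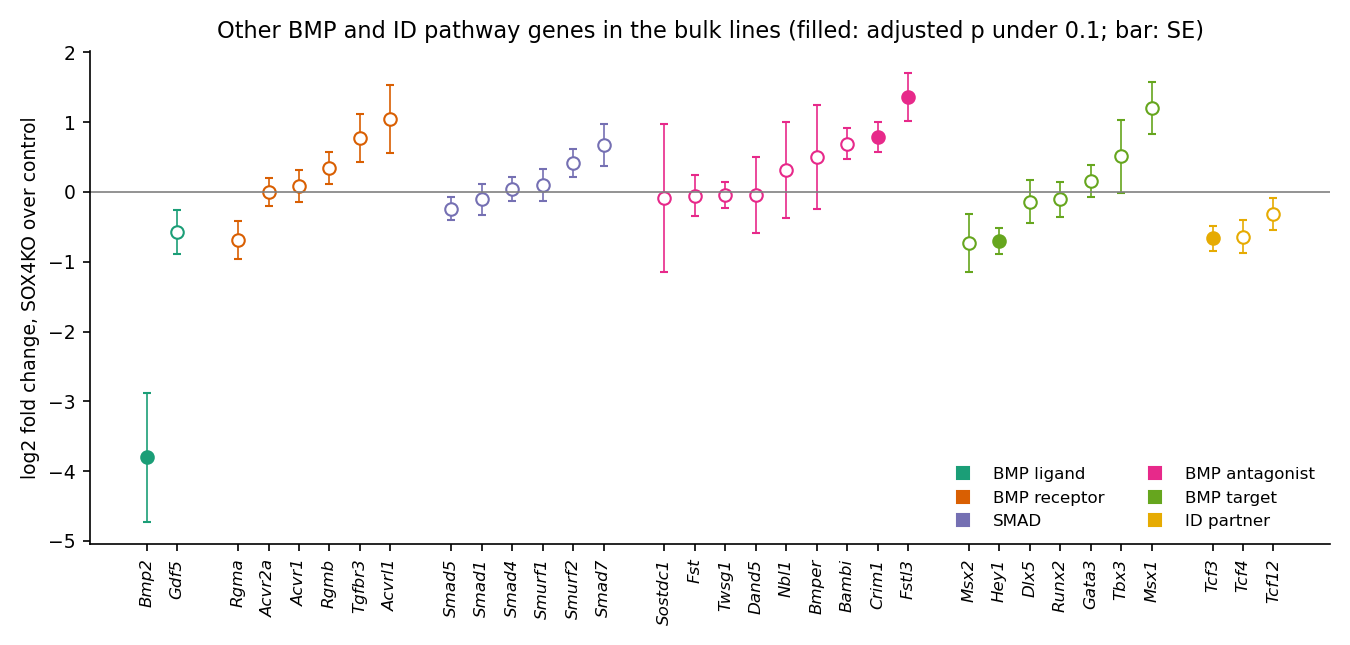
Log2 fold change (SOX4KO over control, bar of 1 SE) of the 33 tested pathway genes in bulk, grouped by role, with filled points for the 5 genes with an adjusted p under 0.1. Fstl3 and Crim1 lie above 0 and Bmp2, Hey1 and Tcf3 below, and the value of Bmp2 rests on 2 reads in SOX4KO lines.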

How the data were processed

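Bulk libraries (polyA RNA, 2 control and 3 SOX4KO lines) were deposited by the authors as raw counts of reads per gene from HTSeq, with no normalization, and single-cell libraries (1 control and 2 SOX4KO plates) as raw UMI counts per gene and well. The submitters' processing notes name STAR 2.4.2a, Picard, R 3.6.1, Seurat, HTSeq, edgeR and DESeq, and the builds NCBIM37 and mm9. Coordinates printed here are from GRCm38, and symbols came from GENCODE by gene identifier (36345 of 38293 matched).

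In bulk, rows that name no gene were left out, as were reads without a feature (25.3% to 30.4%) or not unique (45.7% to 53%). Library sizes were set by TMM (factors 0.913 to 1.08) and the edgeR 4.0.16 quasi-likelihood test was fitted on all 11682 genes kept by filterByExpr, with Benjamini-Hochberg adjustment over all of them and calls at an adjusted p under 0.1. SE is the log2 fold change divided by the root of F. CPM and RPKM use TMM-scaled totals. Alternatives were DESeq2 1.42.0, median-ratio size factors, no filter, a threshold of 0.05 and each line left out.

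Wells with fewer than 1000 UMIs were left out (15, 15 and 22), and no doublet caller was run. Wells with over 2 times the median UMIs numbered 8, 20 and 11. The plates share 384 well barcodes and were kept apart by plate. UMIs were summed per library, with 1 CPM added on the log2 scale and 95% exact intervals, which cover counting error only. Mitochondrial genes took 11.4%, 12.5% and 15.1% of UMIs. Cells were clustered with Seurat 5.3.0 (2000 variable genes without the members, 10 components, 20 neighbours, resolution 0.5). Coding sequences were aligned with MAFFT 7.526. Steps were tested on simulated data.

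The members and lists were chosen with earlier results of these data known. The text names all 9 members, Sox4, pathway genes called in bulk and, for members in at least 20% of thinned cells, the 3 genes of highest mean rank correlation over cells.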

Additional observations from a re-analysis of the deposited data

Results flagged for a closer look

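Bmp7 lay on opposite sides in the assays. Its log2 fold change in the bulk lines was 1.63, with all 3 SOX4KO lines above both control lines, and it was -0.78 and -1.26 in the single-cell libraries GR18 and GR19. Id2 lay the other way, with a log2 fold change of -0.54 in bulk, where all 3 SOX4KO lines were below both controls but the test was not passed (adjusted p = 0.158, edgeR), and 0.45 and 0.16 in GR18 and GR19. In the clusters with low cycling markers Id2 was at 187 CPM in GR19 (172 to 203) and 212 CPM in GR17 (193 to 233), intervals that overlapped. Id4 (0.70 in bulk, -0.58 and -1.95 in single cells) and Bmpr1a (-0.04, and 0.26 and 0.12) also lay on opposite sides, with bulk lines that overlapped. The difference between the assays was not tested for any of these genes, because the single-cell side has 1 control library, and the assays also differ in library method. The labels do not say which clones the plates came from.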

How the results depend on the processing

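No paired analysis was possible because the lines are separate clones and the labels give no shared replicate numbers. The count of 1 called member became 2 with DESeq2 (1 lower, Id2), 4 without the low-count filter (3 higher, 1 lower), 0 at a threshold of 0.05 (0 higher), and 0 to 1 with a line left out (0 to 1 higher, 0 lower). The pathway count of 5 became 11 without the filter, 0 at 0.05 and 0 to 6 with a line left out. Calls over all genes went from 733 (479 higher, 254 lower) to 1686 without the filter (1008 higher, 678 lower), 354 at 0.05 (241 higher, 113 lower), and 56 to 1006 with a line left out (30 to 624 higher, 26 to 382 lower), with 130 without WT1 and 56 without WT3, and DESeq2 gave 999. The cause was not tested for any of these. The log2 fold change of Bmpr1a was -0.123 to 0.036 with a line left out and above 0 without M4. In single cells, 2 members (Id4 and Bmp7) were past 2-fold without GR18 and 0 without GR19. With 2 control and 3 SOX4KO lines, even Id2, at -0.54 ± 0.18 (SE), did not pass in bulk. A gene that was not called is therefore not shown to be unchanged. With 1 control plate, differences within the counting intervals cannot be seen in single cells.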
